A study of Mus musculus with 4 samples.

Results

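Glycolysis splits glucose into pyruvate, and the pentose phosphate pathway branches from it to make NADPH and ribose for nucleotides. T cells that have been activated take up much glucose and turn much of it into lactate, and hypoxia-inducible factors and Myc are known to raise the genes of this route. The genes described here are glucose transporters, the enzymes from hexokinase to lactate dehydrogenase, the lactate transporters and regulators beside them, the pentose phosphate enzymes and a short branch to glycogen. Of 34 listed genes, 31 had an array probe set that the platform annotation assigns to that gene alone, 66 probe sets in all. Gapdh had only 3 control probe sets of the array, which are described apart, so 30 genes with 63 probe sets stand beside 18193 genes measured in all. Eno1, Gpi1 and G6pdx had no such probe set and are not analysed here.

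The study used Affymetrix mouse expression arrays to ask how STAT4 and STAT6, which carry the interleukin-12 and interleukin-4 signals, shape T helper cells. Naive CD4+CD44-CD62L+ T cells were sorted from mouse spleen and lymph nodes, activated for 3 days on anti-CD3 and anti-CD28, and kept for 4 more days in interleukin-2 (50 U/ml). For Th1 cells the medium held interleukin-12 (20 ng/ml, later 10 ng/ml) with interleukin-4 blocked by antibody. For Th2 cells it held interleukin-4 (10 ng/ml) with interferon gamma blocked. On day 7 all cultures were restimulated for 2 h on anti-CD3 and anti-CD28 with interleukin-12 (20 ng/ml) or interleukin-4 (10 ng/ml). The 4 groups were wild-type Th1 (C57BL/6J), STAT4KO Th1 (the C57BL6 strain with the STAT4<tm1> allele), wild-type Th2 (C57BL/6J) and STAT6KO Th2 (a B6.129S2 strain with the STAT6<tm1Gru> allele). The ages of the mice, and whether several mice were pooled, are not given in the labels. Each group was 1 array, so no difference below has a replicate spread or a test, and each describes these arrays.

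Values are log2 expression, and a gene is represented by its main probe set, the one with the highest mean over the 4 arrays. Below, "called" means a log2 difference of 1 or more (2-fold) with the brighter of both arrays at or above 5.82, the median of the non-control probe sets over all arrays, named the level minimum. Array medians ran from 5.63 to 6.01. Beta-actin control probes read higher at the 3′ than the 5′ end by 2.08 log2 units on the STAT6KO Th2 array and by 0.32 to 0.85 on the others, a measure of RNA quality that moves with STAT6 loss. Stat4 read 9.20 in STAT4KO Th1 and 11.45 in wild-type Th1 cells. Stat6 read 10.92 and 10.93 in STAT6KO Th2 and wild-type Th2 cells, and 8.40 and 8.93 on its other probe set; whether these probes lie in the deleted parts is not known here. All 6 measured T cell markers were at or above the level minimum on every array, from 9.68 to 13.7. Of 8 myeloid markers 2 or 3 reached that minimum on each array, and their summed log2 level was 39.8 on the STAT6KO Th2 array and 43.8 to 45 on the others. At that minimum were 0 to 2 of 3 B cell markers, 1 or 2 of 3 CD8 and NK cell markers, and 0 to 2 of 5 mast cell, erythroid and platelet markers. Some single markers were brightest in wild-type Th2 cells, as most members were. Adgre1, a macrophage gene, read 5.0 in wild-type Th1, 5.47 in STAT4KO Th1, 8.26 in wild-type Th2 and 5.92 in STAT6KO Th2 cells. Cd8b1, of CD8 T cells, read 7.41, 6.73, 8.54 and 6.47 in that order, and the mast cell gene Cpa3 read 6.96, 5.63, 8.64 and 4.90. Kit, also of mast cells, ran the other way at 6.72, 6.14, 3.95 and 5.69, as did the myeloid gene Lyz2 at 6.28, 6.45, 4.88 and 5.27. Csf1r and Fcgr3, also of myeloid cells, were close between the wild types (−0.04 both), and Fcgr3 was lower in STAT6 loss (−1.59). Cd8a, of CD8 T cells, read 6.16, 5.96, 6.14 and 5.80, with the wild types close together. Of the T cell markers Cd3e (1.14), Cd4 (1.05) and Cd5 (1.31) were called higher in wild-type Th1 than in wild-type Th2 cells, 3 of 6 (50%, beside 8.14% of all genes). The part of RNA quality and of other cells in the differences below was not tested, and in bulk RNA fewer cells of a type and less RNA per cell cannot be told apart.

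Wild-type Th2 cells had the highest value for most of these genes. Of 30 members, 23 were brightest on that array, which was the brightest for 41.8% of all 13147 genes that reached the level minimum on any array. STAT4KO Th1 cells had the lowest value for 13 members (21.1% of all genes) and wild-type Th1 cells for 9, near their share of all genes (31.1%). The members brightest elsewhere were Hk2 and Slc16a1 (wild-type Th1), Rpe (STAT4KO Th1), and Eno2, Pfkfb3, Pgd and Rpia (STAT6KO Th2).

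**Figure D1:**
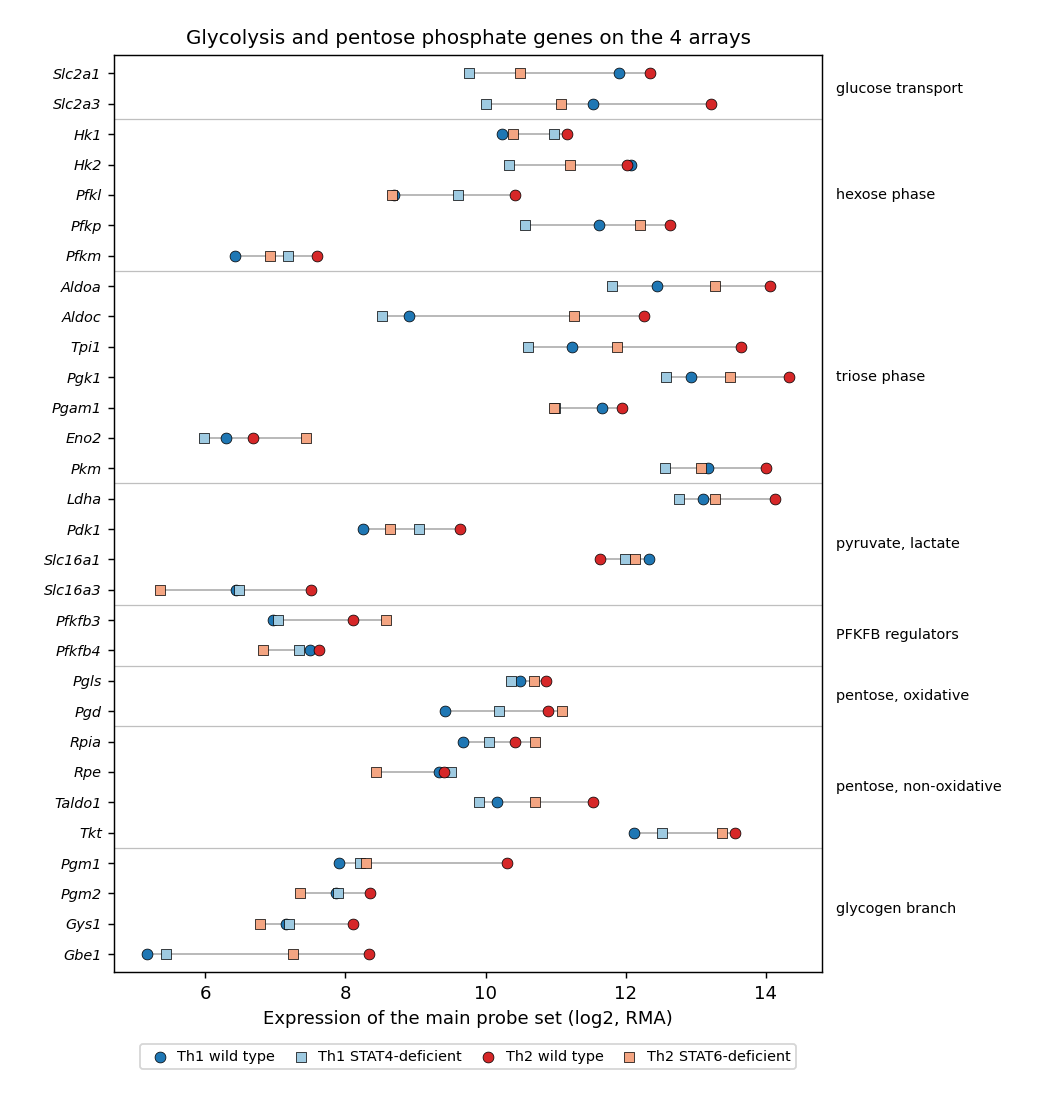
Log2 expression of the main probe set (x axis) of each of 30 members (rows, grouped by role) on the 4 arrays, 1 point per array. The dark red points of wild-type Th2 cells lie rightmost for 23 members; levels of different genes are not comparable with each other, since each rests on its own probes.

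The upstream sequences of some of these genes are shown here because several members were lower together and hypoxia-inducible factors, Myc and STATs have known DNA motifs. For the 250 bases before the annotated start, RefSeq entries were found for 29 of the 30 members, with none for Slc2a3. The letters searched on both strands were ACGTG, a form of the core that hypoxia-inducible factors bind, and CACGTG, the E-box that Myc binds. Other forms of the first, such as GCGTG, were not searched or marked. Also searched was TTC followed by GAA with 3 bases between (TTCNNNGAA), a general STAT spacing, or with 4 between, the spacing STAT6 prefers. Every CACGTG also holds ACGTG. Bases of a match are in capitals and the rest in lower case, 5′ to 3′ along the gene, so that ACGTG on the opposite strand reads CACGT. The first 4 genes had the largest difference between the wild types among members called both there and in STAT6 loss; Slc2a1 and Hk2, lower in STAT4 loss, were added after their values were seen.
Gbe1 (GRCm38.p6, chr16:70313699-70313948, plus strand): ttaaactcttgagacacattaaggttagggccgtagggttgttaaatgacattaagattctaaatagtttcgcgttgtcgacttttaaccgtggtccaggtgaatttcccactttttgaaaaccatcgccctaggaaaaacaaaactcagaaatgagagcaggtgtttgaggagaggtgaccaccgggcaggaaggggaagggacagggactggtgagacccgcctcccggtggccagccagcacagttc
Tpi1 (GRCm38.p6, chr6:124814159-124814408, minus strand): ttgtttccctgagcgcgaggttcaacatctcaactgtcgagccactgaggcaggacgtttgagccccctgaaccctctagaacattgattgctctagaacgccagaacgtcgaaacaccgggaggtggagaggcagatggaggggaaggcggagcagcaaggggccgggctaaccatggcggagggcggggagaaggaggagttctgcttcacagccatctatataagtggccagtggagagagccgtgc
Pgm1 (GRCm38.p6, chr4:99929201-99929450, plus strand): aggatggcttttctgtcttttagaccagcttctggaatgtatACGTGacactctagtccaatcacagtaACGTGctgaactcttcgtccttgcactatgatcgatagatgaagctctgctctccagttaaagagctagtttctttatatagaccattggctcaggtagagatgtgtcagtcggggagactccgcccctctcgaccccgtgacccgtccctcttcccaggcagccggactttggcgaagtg
Pfkl (GRCm38.p6, chr10:78009808-78010057, minus strand): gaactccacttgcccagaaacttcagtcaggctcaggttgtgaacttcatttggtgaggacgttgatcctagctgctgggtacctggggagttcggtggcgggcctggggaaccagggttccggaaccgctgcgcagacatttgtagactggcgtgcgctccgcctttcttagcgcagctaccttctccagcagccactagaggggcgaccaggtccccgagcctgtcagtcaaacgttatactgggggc
Slc2a1 (GRCm38.p6, chr4:119108495-119108744, plus strand): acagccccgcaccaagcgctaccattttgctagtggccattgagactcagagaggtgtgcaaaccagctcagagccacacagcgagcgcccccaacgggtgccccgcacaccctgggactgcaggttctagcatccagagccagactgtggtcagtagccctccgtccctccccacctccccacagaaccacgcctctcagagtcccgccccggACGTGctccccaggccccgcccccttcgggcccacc
Hk2 (GRCm38.p6, chr6:82774455-82774704, minus strand): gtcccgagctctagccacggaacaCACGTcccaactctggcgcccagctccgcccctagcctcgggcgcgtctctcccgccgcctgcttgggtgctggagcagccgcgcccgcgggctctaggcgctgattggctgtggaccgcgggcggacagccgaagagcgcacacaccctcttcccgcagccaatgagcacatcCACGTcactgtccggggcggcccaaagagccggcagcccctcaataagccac
ACGTG was found 2 times before Pgm1, 2 times before Hk2 and 1 time before Slc2a1. Gbe1, Tpi1 and Pfkl had none of the searched motifs in this window, which says nothing about sites elsewhere or about forms not searched. The Pfkl sequence holds GCGTG, and the Slc2a1 sequence holds it on the opposite strand, where it reads CACGC.

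Of the 29 members with an entry, 13 had ACGTG upstream (44.8%), beside 24.1% of 10548 array genes at the level minimum. The 13 were Aldoa, Hk2, Ldha, Pfkfb3, Pfkm, Pgam1, Pgk1, Pgm1, Pgm2, Pkm, Slc16a1, Slc16a3 and Slc2a1. Counted by entry, since a gene can have several, 16 of 41 member entries had ACGTG, beside 16.6% of all 32851 promoter entries. ACGTG holds a CG, and promoters were not matched on base composition, so the shares are a description. CACGTG was found for 4 members (13.8%, against 9.58% of array genes). TTCNNNGAA was found for Aldoc and Pfkm (6.9%, against 7.29%), and the form with 4 bases between for Ldha and Pgd (6.9%, against 5.73%). Among the members with an entry that were called lower in STAT6 loss, 4 of 9 had ACGTG and none had either STAT spacing.

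Without STAT4, Th1 cells had lower signal for both glucose transporter genes, for Hk2 and for Pfkp. These were 4 of the 29 members at the level minimum, and none was called higher; across all genes 5.34% were called lower and 6.18% higher. The median difference over members was −0.15, beside 0.13 over all genes, and 16 of 29 members were below 0. Gbe1 was below the level minimum on both Th1 arrays.

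Slc2a1, which encodes the basal glucose transporter GLUT1, read 11.90 in wild-type Th1, 9.77 in STAT4KO Th1, 12.34 in wild-type Th2 and 10.49 in STAT6KO Th2 cells. It was high in both wild types and low without either STAT. The difference was 4.37-fold for STAT4 loss and 3.59-fold for STAT6 loss, and the 3 Slc2a1 probe sets ran from −2.13 to −1.44 log2 units in the former and from −1.90 to −1.84 in the latter. Slc2a3, which encodes the high-affinity transporter GLUT3, read 11.53, 10.01, 13.22 and 11.08 in the same order of arrays. Its value was again lower in each deficient array than in its wild type, by 2.88-fold for STAT4 loss and 4.40-fold for STAT6 loss. The 3 Slc2a3 probe sets at the level minimum were all below 0 in both losses, from −1.61 to −0.51 in STAT4 loss and from −2.41 to −2.14 in STAT6 loss. The main Slc2a3 probe set is of a kind whose probes can match transcripts of several genes.

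By main probe sets these transporters were the only members called lower in both losses, 2 of the 29 at the level minimum in both (6.9%), beside 2.47% of 10951 genes. STAT4 loss and STAT6 loss share no array. Without regard to size, 14 members were below 0 in both (48.3%), beside 30.9% of genes, and 10 were above 0 in STAT4 loss and below 0 in STAT6 loss, the same share as of all genes (34.5%). The calls of both transporters stood under the 3 other scalings of the arrays that were tried, with Slc2a1 at −2.37 to −1.74 in STAT4 loss and −1.99 to −1.71 in STAT6 loss. With the median over a gene's probe sets, Pfkp and Tpi1 were also called lower in both losses. Pfkp was then at −1.15 in STAT4 loss and −1.23 in STAT6 loss, and Tpi1 at −1.06 in STAT4 loss.

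In the hexose phase 3 of 5 members, Hk1, Pfkl and Pfkm, were above 0 in STAT4 loss. The share below 0 was 40%, near that of all genes (41.8%), and the median was 0.74, beside 0.13 over all genes. The hexokinases, which trap glucose as glucose 6-phosphate, went apart. Hk2, the inducible isoform, read 12.08 in wild-type Th1, 10.33 in STAT4KO Th1, 12.02 in wild-type Th2 and 11.21 in STAT6KO Th2 cells. The wild types were close together, STAT4KO cells were 3.36-fold lower than wild-type Th1, and STAT6KO cells differed by −0.81, under the limit. Hk1, the constitutive isoform, read 10.24, 10.98, 11.16 and 10.39 in the same order. It was higher by 0.74 log2 units without STAT4 and lower by 0.77 without STAT6, neither called. The other Hk1 probe set differed by 0.71 in STAT4 loss but by −2.29 in STAT6 loss.

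Phosphofructokinase catalyses the committed step of glycolysis, and its 3 isoform genes also differed. Pfkp read 11.62 in wild-type Th1, 10.57 in STAT4KO Th1, 12.64 in wild-type Th2 and 12.20 in STAT6KO Th2 cells. It was called lower in STAT4 loss (−1.06), but 1 of its 3 probe sets lay at 0.67, and the call was kept under only 1 of the 3 other scalings, median centring (−1.30 there). In STAT6 loss the main Pfkp probe set differed by −0.43, not called, while its other probe sets differed by −1.23 and −1.46. Pfkl read 8.69, 9.60, 10.42 and 8.67 in the same order. It was high in wild-type Th2 cells and 3.38-fold lower without STAT6, while STAT4KO cells lay 0.91 above wild-type Th1. All 3 Pfkl probe sets were above 0 in STAT4 loss (0.62 to 0.91) and below 0 in STAT6 loss (−1.76 to −0.79). Pfkm, at 6.42 to 7.60, differed by 0.75 in STAT4 loss and −0.67 in STAT6 loss.

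In the triose phase, which yields the ATP of glycolysis, none of the 7 members was called in STAT4 loss, though all 7 lay below 0, from −0.67 to −0.31. Of all genes 41.8% were below 0. Among the 7 were Pgam1 (−0.67), Aldoa (−0.64), Tpi1 (−0.64) and Pkm (−0.62). Tpi1 was at −1.33 and −1.06 on its other probe sets, so its main probe set gave the smallest of 3 differences. With arrays centred on the hybridization controls Aldoc, Pgk1 and Eno2 turned above 0, as did Pgk1 under quantile normalization, at most to 0.08.

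The pentose phosphate genes and the glycogen branch did not share the lower values in STAT4 loss. The 6 measured pentose phosphate members had a median of 0.27, with 4 above 0, while all genes had a median of 0.13 and 41.8% below 0. Pgd, the second NADPH-making enzyme, was highest of the 6 at 0.77, and its 4 probe sets ran from 0.72 to 1.32. Tkt, the transketolase, was at 0.41, Rpia at 0.36, Rpe at 0.18, Pgls at −0.13 and Taldo1, the transaldolase, at −0.26. Pgm1, Pgm2 and Gys1 were within 0.30 of wild type. Pdk1, the kinase that switches off pyruvate dehydrogenase, was at 0.80, with 3 probe sets from 0.68 to 1.16.

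In STAT6 loss 10 of 30 members were called lower and none higher, while 19.5% of all genes were called lower and 7.01% higher. The median over members was −0.85, beside −0.30 over all genes, and 25 of 30 were below 0 (83.3%, against 65.7% of all genes). The lower ones were Slc2a1, Slc2a3, Pfkl, Tpi1, Pdk1, Slc16a3, Pgm1, Pgm2, Gys1 and Gbe1. The share of members called, 10 of 30, stands above the background, but by a few genes, and Pdk1 and Pgm2 lay at the limit itself (−1.0 both). Just outside it were Aldoc (−0.99), Pgam1 (−0.97), Rpe (−0.97) and Pkm (−0.93).

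All 4 members of the glycogen branch were called lower in STAT6 loss, beside 19.5% of all genes. Of these 4, Pgm1 alone was called under quantile normalization. Pgm1, the phosphoglucomutase that links glucose 6-phosphate to glycogen, read 7.90 in wild-type Th1, 8.20 in STAT4KO Th1, 10.30 in wild-type Th2 and 8.29 in STAT6KO Th2 cells. Wild-type Th2 cells stood apart from the other 3 arrays, 4.03-fold above STAT6KO and 5.27-fold above wild-type Th1 cells. The other Pgm1 probe set at the level minimum differed by only −0.28 in STAT6 loss. Gys1, the glycogen synthase, read 7.15, 7.19, 8.11 and 6.78 in the same order (−1.33 in STAT6 loss), and its other probe set was below the minimum. Pgm2, which acts mainly on pentose phosphates, read 7.86, 7.89, 8.35 and 7.35.

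Gbe1, the glycogen branching enzyme, read 5.16 in wild-type Th1, 5.44 in STAT4KO Th1, 8.33 in wild-type Th2 and 7.25 in STAT6KO Th2 cells. Both Th1 arrays were below the level minimum, and STAT6KO cells lay between them and wild-type Th2. The difference in STAT6 loss was −1.07, a call kept under 1 of the 3 other scalings.

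Slc16a3, which encodes the lactate exporter MCT4, read 6.44 in wild-type Th1, 6.48 in STAT4KO Th1, 7.5 in wild-type Th2 and 5.35 in STAT6KO Th2 cells. STAT6 loss gave −2.16, with the STAT6KO array below the level minimum, so the size of the difference is uncertain. It was also below both Th1 arrays. Slc16a1, which encodes the related transporter MCT1, ran the other way at 12.34, 11.99, 11.64 and 12.13, with wild-type Th2 lowest and a difference of 0.49. Its other probe set differed by 1.40, with wild-type Th2 below the level minimum (5.01), so that size is uncertain. Pdk1 read 8.25, 9.05, 9.64 and 8.64, and its 3 probe sets ran from −1.0 to −0.74 in STAT6 loss. Ldha, lactate dehydrogenase A, read 13.10, 12.76, 14.13 and 13.28, a difference of −0.85.

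Of the triose phase only Tpi1, triosephosphate isomerase, was called lower in STAT6 loss. It read 11.24 in wild-type Th1, 10.60 in STAT4KO Th1, 13.64 in wild-type Th2 and 11.88 in STAT6KO Th2 cells, 3.39-fold lower without STAT6. Its 3 probe sets ran from −2.11 to −1.76. Aldoa (−0.77), Aldoc (−0.99), Pgk1 (−0.85), Pgam1 (−0.97) and Pkm (−0.93) were lower by less than 2-fold, and Eno2, the neuronal-type enolase, was higher by 0.76.

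The pentose phosphate genes were nearer to wild type than the members as a whole, with a median of −0.18 and none of 6 called. Over all genes the median was −0.30 and 26.5% were called, so the pentose phosphate median was near that of all genes. Pgls (−0.17), Pgd (0.21), Rpia (0.29) and Tkt (−0.19) were close to 0, and Taldo1 (−0.82) and Rpe (−0.97) lower. The 18 members from glucose transport to lactate had a median of −0.89, with 6 called lower (33.3%, beside 19.5% of all genes). The difference between these sets was not tested. Of the regulators that set fructose 2,6-bisphosphate, the activator of phosphofructokinase, Pfkfb3 was at 0.48 and Pfkfb4 at −0.80.

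Gapdh, the enzyme often used as a reference, was seen only through the array's control probe sets for its 3′ end, middle and 5′ end. At the 3′ end it read 13.40 in wild-type Th1, 12.84 in STAT4KO Th1, 14.49 in wild-type Th2 and 13.94 in STAT6KO Th2 cells. Wild-type Th2 was highest on all 3. STAT6 loss gave −0.55 at the 3′ end, −1.06 in the middle and −1.33 at the 5′ end, so the size depended on the position of the probes. STAT4 loss gave −0.56, −0.81 and −0.89. Wild-type Th1 minus wild-type Th2 gave −1.09, −1.02 and −0.93.

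**Figure D2:**
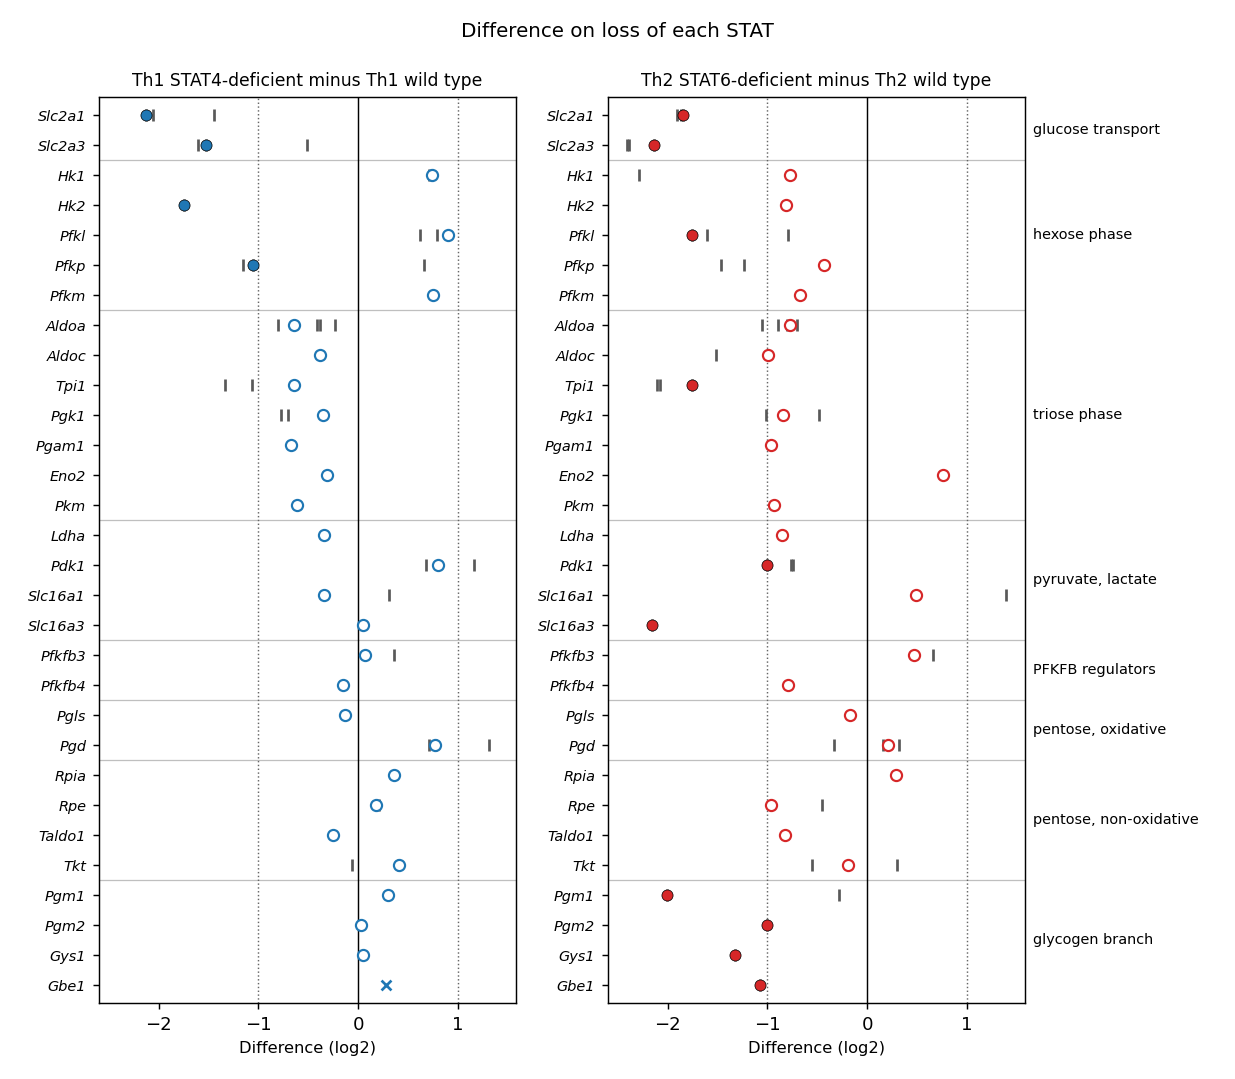
Log2 differences of the members in STAT4 loss (left) and STAT6 loss (right). Circles are main probe sets, filled where called; ticks are the other probe sets at the level minimum; a cross marks Gbe1, below it; dotted lines mark 2-fold. Slc2a1 and Slc2a3 are filled on both sides, and the 4 glycogen branch genes are filled only on the right.

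Between the wild types, Th1 cells had lower signal than Th2 cells for 17 of 30 members and higher signal for none, while 25.4% of all genes were lower and 8.14% higher. The median over members was −1.05, beside −0.37 over all genes, and 28 of 30 were below 0 (65.4% of all genes). Many of these genes are bright, and bright genes were more often lower in Th1 cells. Among genes whose brighter array reached the pooled 75th percentile, 7.76, 15 of 26 members were lower and none higher, beside 32.2% and 6.09% of all genes. With that minimum, STAT4 loss had 4 of 23 members lower and none higher, beside 7.47% and 5.14% of all genes. STAT6 loss had 9 of 26 lower and none higher, beside 22.4% and 7.47%. The labels name each wild type as the control of its own knockout and do not say whether all 4 arrays were processed together. Each wild type array also enters the loss measured against it, so these values are not independent of those above.

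Aldoc, the aldolase C gene, had the largest difference. It read 8.90 in wild-type Th1, 8.52 in STAT4KO Th1, 12.26 in wild-type Th2 and 11.27 in STAT6KO Th2 cells. Both Th2 arrays lay above both Th1 arrays, by 10.3-fold between the wild types, and the other Aldoc probe set, below the level minimum on both Th1 arrays, differed by −2.58. Aldoa, the main aldolase of most cells, read 12.44, 11.80, 14.05 and 13.28 in the same order and differed by −1.61 between the wild types. All 5 Aldoa probe sets are of a kind that can cross-hybridize, and they ran from −1.76 to −0.20.

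Tpi1 was 5.28-fold and Pgm1 5.27-fold lower in wild-type Th1 than in wild-type Th2 cells. Gbe1 differed by −3.17, a size that is uncertain because both Th1 arrays were below the level minimum. Slc2a3 was 3.23-fold lower, though the median over its probe sets gave −0.97, under the limit. Slc2a1 (−0.44) and Hk2 (0.06) were close in the wild types, although both were lower without STAT4. Pgk1, phosphoglycerate kinase, differed by −1.41, and read 12.93 in wild-type Th1, 12.57 in STAT4KO Th1, 14.34 in wild-type Th2 and 13.49 in STAT6KO Th2 cells. Ldha (−1.03) passed the limit and Pkm (−0.82) did not. With the median over a gene's probe sets Slc2a3, Pfkl, Pfkp, Pgk1 and Pfkfb3 were not called.

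Of the 6 pentose phosphate members, 3 were called lower in wild-type Th1 cells (50%, beside 25.4% of all genes). Pgd read 9.42 in wild-type Th1, 10.18 in STAT4KO Th1, 10.88 in wild-type Th2 and 11.09 in STAT6KO Th2 cells, and Tkt read 12.11, 12.52, 13.56 and 13.38. For both genes the main probe set was higher on the Th2 arrays than on the Th1 arrays with and without the STAT. Between the wild types the 4 Pgd probe sets ran from −1.59 to −1.07, and the 3 Tkt probe sets from −1.45 to −0.53. Between the knockouts neither gene was called (−0.91 and −0.86). There the Pgd probe sets ran from −0.91 to −0.02 and the Tkt probe sets from −0.89 to −0.35. Taldo1 read 10.16, 9.90, 11.53 and 10.71 and differed by −1.37. Rpia (−0.73), Pgls (−0.38) and Rpe (−0.08) were not called.

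The remaining members called lower were Pfkl (−1.73), Pdk1 (−1.39), Pfkm (−1.18), Pfkfb3 (−1.13), Slc16a3 (−1.07) and Pfkp (−1.01). The second probe set of Pfkfb3 lay at 0.66, above 0. The other Pfkp probe sets lay on both sides, at −1.97 and 0.91. Slc16a1 (0.70) and Hk2 were the members above 0.

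Between the knockout cultures, STAT4KO Th1 minus STAT6KO Th2, 8 of 30 members were lower in the Th1 array and 2 were higher, while 10.3% of all genes were lower and 12.6% higher. The median over members was −0.59, beside 0.02 over all genes. Aldoc (−2.75), Gbe1 (−1.81), Pfkp (−1.64), Pfkfb3 (−1.54), Aldoa (−1.48), Eno2 (−1.45), Tpi1 (−1.28) and Slc2a3 (−1.08) were lower, and Slc16a3 (1.14) and Rpe (1.07) higher. With arrays centred on their medians 15 were lower and none higher, beside 21.4% and 4.95% of all genes. With the 75th percentile as minimum, 6 of 24 members were lower and 1 higher, beside 14.4% and 5.17% of all genes. The other Rpe probe set at the level minimum was at −0.12, the lowest Pfkp difference is that of its main probe set with another at 1.22, and the second Pfkfb3 probe set was at 0.35.

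**Figure D3:**
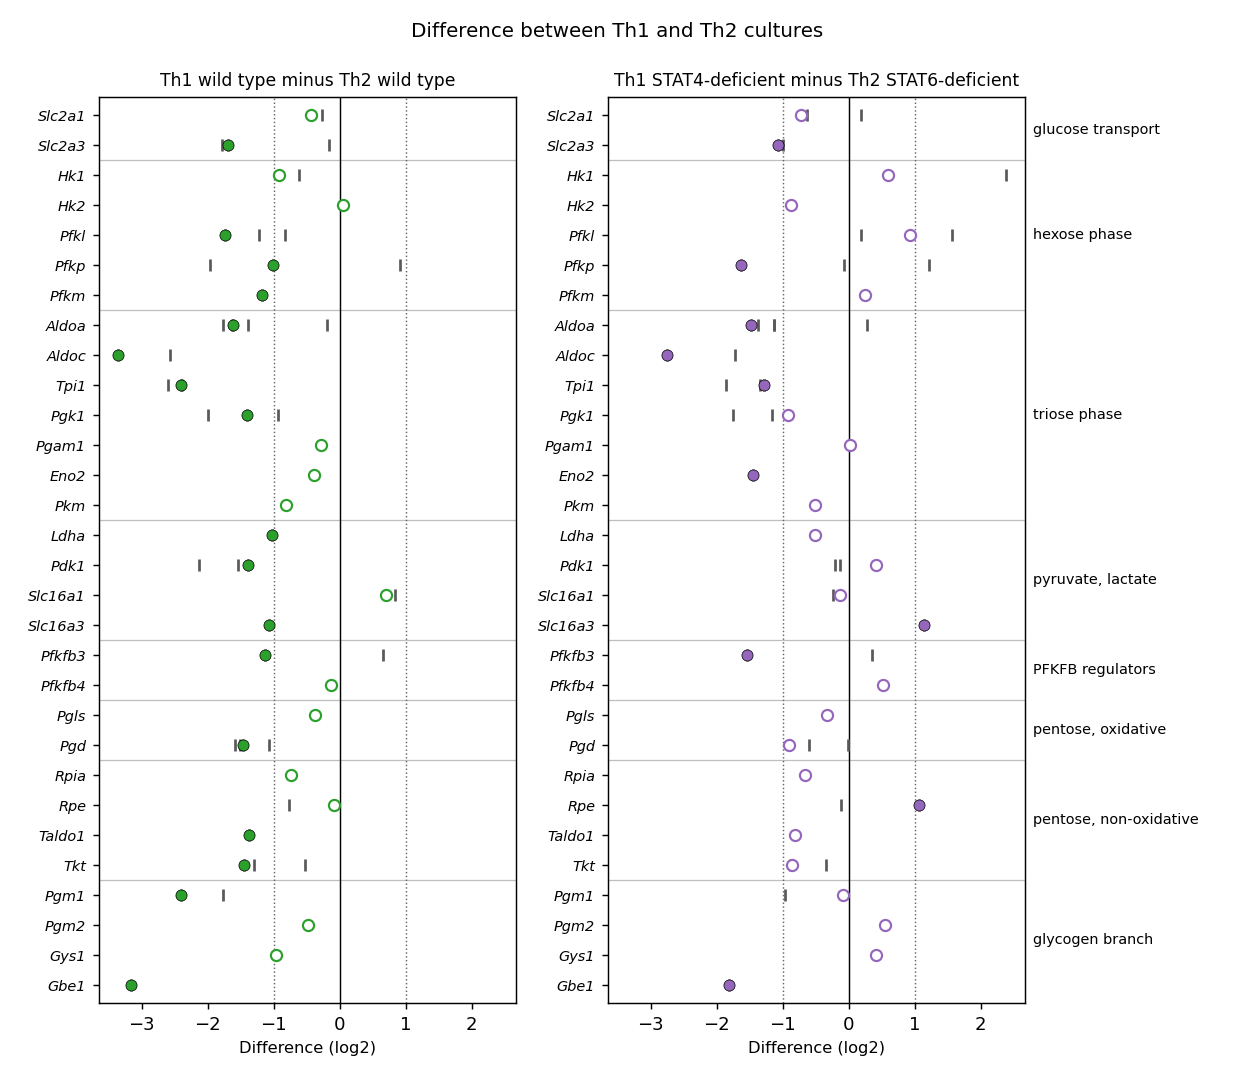
Log2 differences of Th1 minus Th2 cultures for the members, in wild type cells (left) and between the STAT-deficient arrays (right). Symbols are as in the plot of the losses. Aldoc lies farthest left in both panels, at −3.36 and −2.75, while Pgm1 lies at −2.40 on the left and −0.09 on the right.

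**Figure D4:**
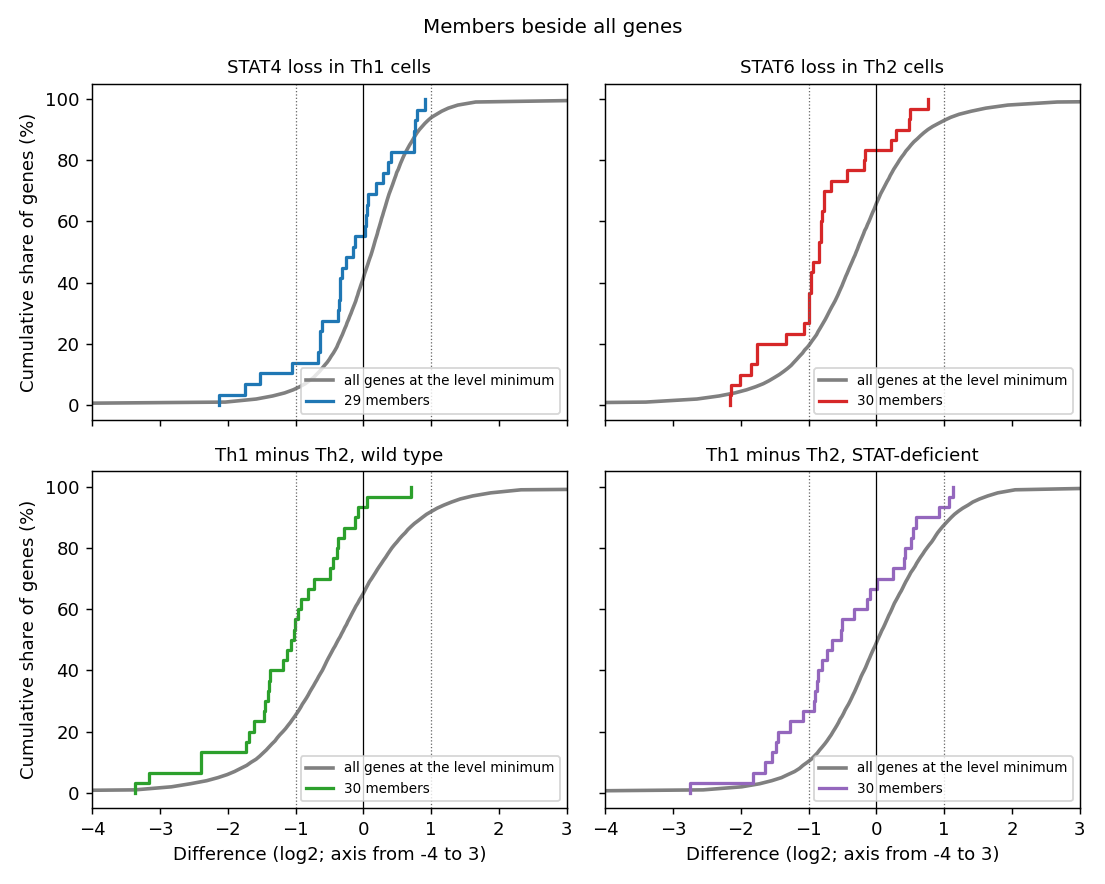
Cumulative share (%) of members (coloured steps) and of all genes at the level minimum (grey) against the log2 difference in each of the 4 comparisons; dotted lines mark 2-fold. The member curve lies left of the grey curve over most of its length in each panel, with medians of −0.15, −0.85, −1.05 and −0.59 against 0.13, −0.30, −0.37 and 0.02.

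Beyond the members, lists of related genes were read in the same way. The shares of all genes called higher and lower were 6.18% and 5.34% in STAT4 loss and 7.01% and 19.5% in STAT6 loss. Between the wild types they were 8.14% and 25.4%. Of other enzymes and transporters 3 of 23 at the level minimum were higher (13%) and none lower in STAT4 loss. In STAT6 loss 3 were higher and 5 lower of 18 (16.7% and 27.8%). Between the wild types 1 was higher and 3 lower of 18 (5.56% and 16.7%). Their median was 0.04 between the wild types, beside −1.05 for the members. Slc2a8, which encodes a glucose transporter of inner membranes, read 6.88 in wild-type Th1, 6.38 in STAT4KO Th1, 9.45 in wild-type Th2 and 6.58 in STAT6KO Th2 cells. Gpd1l, a glycerol-phosphate dehydrogenase-like gene, read 6.18, 8.12, 8.16 and 7.36 and was called higher without STAT4 (1.94). Tktl1, a transketolase-like gene, differed by 1.89 in STAT4 loss, and Shpk, the sedoheptulose kinase, by 2.11 between the knockouts. Each was below the level minimum on the lower array, and Shpk only just above it on the other (5.89), so these sizes are uncertain.

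Of other glycogen genes 5 of 11 were lower and none higher in STAT6 loss (median −0.96), a share lower of 45.5% beside 19.5% of all genes. Between the wild types 7 of 11 were lower in Th1 cells and none higher, a share lower of 63.6% beside 25.4%. Ugp2, which makes UDP-glucose, read 8.81, 8.35, 10.72 and 8.96 in the order wild-type Th1, STAT4KO Th1, wild-type Th2, STAT6KO Th2. Wild-type Th2 stood above the other arrays, with −1.76 in STAT6 loss. Pygb (−1.17) and Phkb (−1.25), a glycogen phosphorylase and a subunit of its kinase, were lower too, while Pygl, the liver phosphorylase, was at 0.67 and differed by −2.08 between the wild types, with wild-type Th1 below the level minimum.

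Genes of pyruvate use in the mitochondria, mostly pyruvate dehydrogenase subunits and the kinases and phosphatases that switch it off and on, were 2 higher and none lower of 10 in STAT4 loss, 1 lower and none higher in STAT6 loss and 4 lower and none higher between the wild types. The share higher in STAT4 loss was 20%, beside 6.18% of all genes. Shares lower in STAT6 loss and between the wild types were 10% and 40%, beside 19.5% and 25.4%. The pyruvate dehydrogenase subunits Pdhx (1.33) and Dlat (1.18) were the higher ones in STAT4 loss. Pdk3, another kinase of that complex, read 7.89 in wild-type Th1, 7.40 in STAT4KO Th1, 9.90 in wild-type Th2 and 8.15 in STAT6KO Th2 cells. Pcx, pyruvate carboxylase, differed by −1.84 between the wild types.

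Among 20 listed regulators, 4 of 18 were lower in STAT4 loss and none higher, 4 lower and 2 higher of 19 in STAT6 loss, and 6 lower and 2 higher of 19 between the wild types. The shares lower were 22.2%, 21.1% and 31.6%, beside 5.34%, 19.5% and 25.4% of all genes, so those in STAT6 loss and between the wild types were near the background. Epas1, which encodes HIF-2α, read 6.24, 7.18, 13.67 and 6.14 in the same order of arrays, bright in wild-type Th2 cells alone. Egln3, a prolyl hydroxylase that marks HIF for decay and is itself a HIF target, read 13.65, 10.34, 13.12 and 11.79, lower without either STAT. Mxi1, a Myc antagonist, read 9.83, 7.80, 10.95 and 9.0, also lower without either. Prkaa1, a catalytic subunit of AMP-activated kinase, was lower in STAT4 loss (−2.22), with STAT4KO Th1 below the level minimum. Hif1a and Myc were named after their values were seen. Hif1a read 13.51, 12.15, 13.48 and 13.01 (−1.36 in STAT4 loss), and Myc read 13.45, 12.88, 12.16 and 13.35 (1.18 in STAT6 loss).

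Of 9 measured reference genes none was called in STAT4 loss, 1 was lower in STAT6 loss and 2 were lower between the wild types. The last 2 shares were 11.1% and 22.2%, beside 19.5% and 25.4% of all genes. The one in STAT6 loss was Actb (−1.52), the gene of the control whose 3′ and 5′ ends differed. Gusb (−2.32) and Sdha (−1.37) were lower in Th1 than in wild-type Th2 cells.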

How the data were processed

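The authors' deposited values are log2 expression per probe set, made with RMA, which corrects background and combines the probes of a set, per the submitters' processing notes; the version and whether arrays were normalized together are not given in the sources used here. Arrays have no read depth; their number, 1 per group, limits the precision. Of 45101 probe sets 64 are controls; the platform annotation gave 1 gene for 34945 others, several for 932 and none for 9160. Symbols were updated by gene ID through a RefSeq table of GRCm38.p6, which matched 34741, all 66 member probe sets included. Each gene was represented by its brightest probe set over the 4 arrays. Differences of log2 values, calls and counts were computed with Python 3.11.15, pandas 2.3.3 and numpy 2.4.6. The code was run on simulated arrays with planted differences, which checks the calculation and not the calls in these arrays. No test was possible. As a technical guide, probe sets of the same gene scattered around their mean difference with an SD over all genes of 0.48 (STAT4 loss), 0.65 (STAT6 loss), 0.71 (wild types) and 0.85 (knockouts), and of 0.41, 0.43, 0.64 and 0.71 over members; this covers probe behaviour, not mice or cultures. Names ending in _x_at or _s_at mark probe sets that can match other genes, and 4 main probe sets are of these kinds. All members were to be named, with up to 4 called genes of each other list. The members and lists were chosen with earlier results of these data known. Alternatives were 3 scalings, 2 level minimums and the median over a gene's probe sets. Promoter sequences are RefSeq's (GRCm38.p6); printing is limited to bases before the start. Protein sequences were not used here.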

Additional observations from a re-analysis of the deposited data

Results flagged for a closer look

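For 10 of the 29 members at the level minimum in both losses (34.5%), STAT4 loss and STAT6 loss had opposite signs and lay at least 1 log2 unit apart; over all genes this was 23.4%. The sign pattern alone, STAT4 loss above 0 and STAT6 loss below 0, was as frequent in members as in all genes (34.5% of each). With 1 array per group the difference between the losses was not tested. STAT6 loss minus STAT4 loss was −2.66 for Pfkl, −2.31 for Pgm1, −2.20 for Slc16a3, −1.80 for Pdk1, −1.51 for Hk1, −1.42 for Pfkm, −1.38 for Gys1, −1.15 for Rpe and −1.03 for Pgm2. In these 9 STAT4 loss was above 0 and STAT6 loss below 0, none was called in STAT4 loss, and Hk1, Pfkm and Rpe were not called in STAT6 loss. Eno2 ran the other way at 1.07. Under quantile normalization 6 members met this description, all among the 10 (Hk1, Pfkl, Pfkm, Eno2, Pdk1 and Pgm1), and under median centring 7 did, 6 of them among the 10. With the hybridization controls 15 did, and Eno2 was not among them. For Slc16a3, Pgm2 and Gys1 the STAT4 loss value was within 0.05 of 0, so their opposite sign carries little.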

How the results depend on the processing

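No paired analysis was possible because each group has 1 array and the result comes from no test. Scaling moved the counts most. Centred on the hybridization controls, the median over members in STAT4 loss turned from −0.15 to 0.24 and 5 of 29 members were called higher in place of none. All genes moved likewise, to a median of 0.53 with 18.6% called higher. In the knockout comparison the members called higher numbered 2; median centring gave none (0), the 75th percentile as level minimum 1, and the median over probe sets 4, while the lower ones went from 8 to 15 with median centring. The other counts of called members stayed within 1.5 times of the reported ones: 3 to 5 lower in STAT4 loss, 7 to 14 lower in STAT6 loss and 12 to 21 lower between the wild types, with none higher in the last 2 comparisons. Of the calls, 3 of 4 in STAT4 loss, 6 of 10 in STAT6 loss and 12 of 17 between the wild types held under all 3 other scalings. Between the knockouts 6 of 8 lower calls and 0 of 2 higher calls did. With the median over a gene's probe sets, which weighs dim probe sets as much as bright ones, Pfkp turned to 0.24 for the wild types and to 0.32 for the knockouts, where Slc2a3 turned to 0.19. Over all genes the share of calls that were higher ran from 24.8% (median centring) to 87.7% (hybridization controls) in STAT4 loss, beside 53.7%. It ran from 18.4% to 43.4% in STAT6 loss, beside 26.5%. Between the wild types it ran from 8.98% to 45.2%, beside 24.3%, and between the knockouts from 18.8% to 71% under the scalings, beside 55.1%. The median of all genes moved too, from −0.78 to 0.01 for the wild types (−0.37 as reported). Members near the level minimum, such as Gbe1 in Th1 cells, are limited by signal over background.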
